A study of Mus musculus with 35 samples.

Results

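The RNA contacts of NXF1 were compared with those of SRSF4 in mouse P19 embryonal carcinoma cells, with 3 cross-linking libraries for each protein, 6 of the 31 libraries of the series that have a file of their own. The members were chosen by sample title, as all libraries titled NXF1 or SRSF4. Each protein carried a GFP tag and was expressed from a bacterial artificial chromosome (BAC) in a stable clonal line, so that the cells kept their own untagged copies and also had extra copies of the tagged gene and of the genes next to it. In iCLIP, living cells are irradiated with ultraviolet light at 254 nm, the tagged protein is pulled down with an antibody against GFP, and the end of each cDNA marks the nucleotide where protein and RNA were joined. Cells with GFP bearing only a nuclear localization signal (GFP-NLS) served as the control. Its 4 libraries have 1 pooled file, so that the control gives a background level and no test.

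NXF1 is the receptor that carries mature mRNA through the nuclear pore, and it binds RNA with little sequence preference of its own, so adaptor proteins bring it to its cargo. SRSF4 is one of the larger members of the SR protein family, splicing factors that bind exons and help the spliceosome to recognise them. SR proteins have also been described as adaptors that can hand mRNA over to NXF1. The comparison asked where on the transcript, and on which RNAs, the receptor and the splicing factor leave different marks.

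A listed cDNA is called a tag, and levels are given as CPM, the tags of a gene or region scaled to a library's sum of listed tags. The NXF1 libraries held 237488, 140361 and 108708 tags in replicates 1, 2 and 3. The SRSF4 libraries held 108216, 1266898 and 159383. The pooled control held only 21880, where 3 tags make 137 CPM, so that none listed in the control is no absence. SRSF4 replicate 2 stood apart. It was the deepest of the 6, and 70.7% of its tags lay in protein-coding genes. The share was 30.2% and 43.8% in the other SRSF4 libraries and 17.6% to 27.8% with NXF1. The pooled control had 22.7%, inside the NXF1 range. Results are therefore also given without SRSF4 replicate 2. Per the file headers all 6 libraries came from one sequencing run, with the NXF1 libraries together in 1 lane and the SRSF4 libraries in others, so that lane and protein cannot be told apart. Over the 1025 genes tested, NXF1 libraries resembled each other (Spearman correlations of 0.76 to 0.83), SRSF4 libraries ranged from 0.43 to 0.71 among themselves, and pairs across the proteins ranged from −0.11 to 0.48. All 8 markers of P19 cells were listed in at least 1 library, and Lin28a, an RNA-binding protein of pluripotent cells, was listed in all 6.

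A selection of the sites that separated the proteins clearly is shown first. Each sequence is 29 nt of the transcript strand from NCBIM37 (mm9), 5′ to 3′, with the cross-linked position that held most tags of the higher group in capitals. The first 4 were higher with NXF1 and the last 4 with SRSF4.
Nxf1 intron 10, chr19:8840590-8840618 (+): gatttattcttcatTtctaccttgggacc
Tmem167b intron 2, chr3:108362278-108362306 (−): tctatataaatattTtttaaatagggtaa
outside genes, chr7:67365124-67365152 (−): tttttcatagaattTttgagaggtttgta
Hnrnpul2 3′ UTR, chr19:8906174-8906202 (+): ggtgggggagggggGagtggaaacaaaac
Srsf2 coding sequence, chr11:116713365-116713393 (−): gtccaagagcccacCcaagtctccagaag
Hnrnpu coding sequence, chr1:180261283-180261311 (−): aaagatgaagactaTaagcagaggacaca
Hsp90ab1 coding sequence, chr17:45707672-45707700 (−): accagacagagtacTtggaggagaggagg
Srsf4 coding sequence, chr4:131453687-131453715 (+): tggacggaactgaaGtcaacggcagaaaa
The position in capitals held a small part of its region: 25 of 679 NXF1 tags in Nxf1, 12 of 322 in Tmem167b and 20 of 562 on chromosome 7. The Hnrnpul2 site was picked after its values were seen. The other 7 came from the regions named by rule, by size of change among regions past the test. Not all of those are printed. Left out with NXF1 were regions of a repeat on chromosome 17 (log2 difference up to 9.98) and of the mitochondrial rRNA gene mt-Rnr2 (8.76). Their positions with most tags were C, T, G and A on chromosome 17 and A in mt-Rnr2. The largest changes on the SRSF4 side, also left out, lay outside genes, at chr4:86608134-86608147 (−7.10) and chr17:64209547-64209556 (−6.94). An intron of Mecr (−6.23) and the pseudogene Gm4204 (−6.11) were left out too.

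On mRNA, a larger share of NXF1 than of SRSF4 tags lay at the 3′ end, and a larger share of SRSF4 tags in internal exons. Of the tags in multi-exon coding transcripts, the 3′ UTR of the last exon held 40.96%, 37.0% and 43.0% with NXF1 and 20.2%, 22.3% and 24.4% with SRSF4. Every NXF1 library lay above every SRSF4 library, with means of 40.3% ± 3.07 and 22.3% ± 2.08 (SD, n = 3 each) and a difference of 18.03 percentage points. Internal exons showed the opposite order, with 40.8%, 37.9% and 29.2% for NXF1 against 59.004%, 66.0% and 61.7% for SRSF4. The exact permutation test gave p = 0.1 for both, which is the smallest value that 3 libraries against 3 can give in a two-sided test with 20 splits (0.167 after adjustment over 5 exon classes). The pooled control lay between the proteins, at 31.3% in last-exon 3′ UTRs and 46.2% in internal exons.

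The same order held for the tags in coding sequence (CDS) and UTRs of all coding genes, single-exon genes included. There, 43.4%, 42.1% and 48.2% of NXF1 tags were in 3′ UTRs and 28.0%, 23.1% and 27.0% of SRSF4 tags. CDS held 42.8% ± 4.91 with NXF1 and 66.9% ± 5.19 with SRSF4, again without overlap (exact permutation p = 0.1, 0.15 adjusted over 3 classes). The coding part of the last exon did not separate them, at 6.82% ± 0.296 and 6.39% ± 0.580 (exact permutation p = 0.4). Of all tags off the mitochondrial genome, 3′ UTRs held 5.75% ± 1.84 with NXF1 and 8.93% ± 3.85 with SRSF4 (exact permutation p = 0.2), and counting each position once turned this difference to 0.44 percentage points higher with NXF1. CDS and UTRs together held 18.2%, 10.9% and 9.90% of NXF1 tags and 18.7%, 56.0% and 32.0% of SRSF4 tags.

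**Figure D1:**
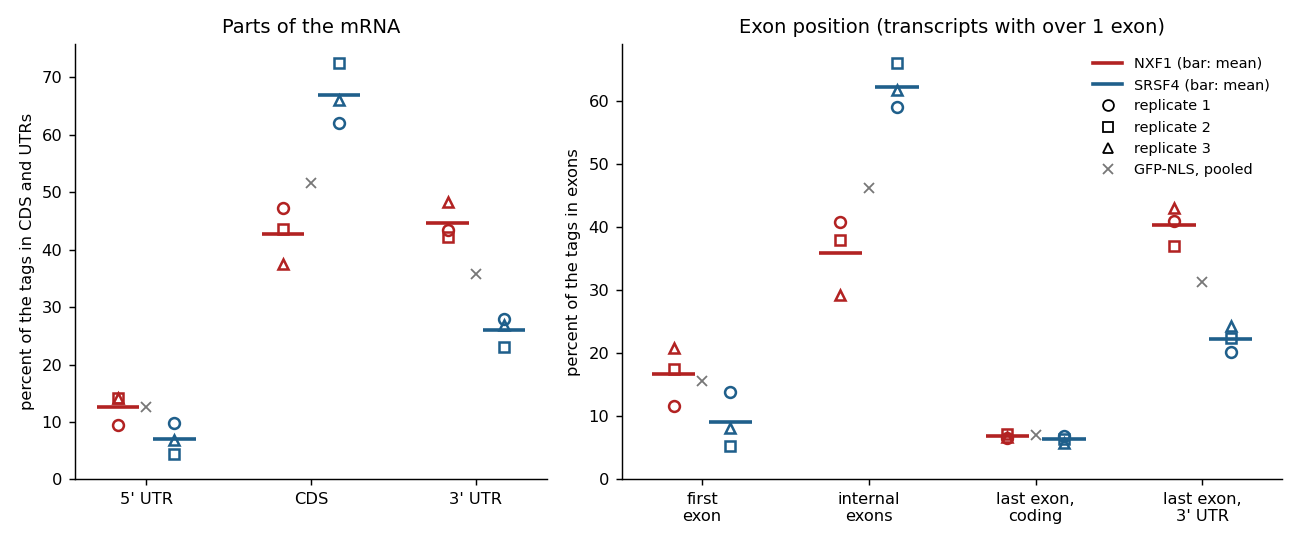
Percent of the tags in CDS and UTRs (left) and percent of the tags in exons of multi-exon coding transcripts (right) for each NXF1 and SRSF4 library, with bars at the mean of 3 libraries and crosses for the pooled GFP-NLS control. All 3 NXF1 libraries lie above all 3 SRSF4 libraries in 3′ UTRs (44.6% against 26.0% on average) and below them in CDS and internal exons.

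The difference was spread over genes. The 10 genes with most tags in last-exon 3′ UTRs held 13.5% to 18.6% of those tags with NXF1 and 8.76% to 22.5% with SRSF4. With each gene given the same weight, among genes with at least 20 exon tags, the 3′ UTR of the last exon held 40.5%, 34.1% and 37.0% with NXF1 and 18.5%, 22.0% and 22.3% with SRSF4. The deep SRSF4 library held 4608 such genes and NXF1 replicate 3 held 52, so the precision of these values differed widely. Without SRSF4 replicate 2 the difference in the share of tags was 18.1 points.

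Several annotated exons contain small RNA genes on the same strand, and tags there cannot be split between the mRNA and the small RNA. In first exons, Grcc10 alone held 604 of 911, 593 of 709 and 515 of 610 NXF1 tags in the third of 10 equal bins, and the annotated U7 small nuclear RNA gene inside Grcc10 held the same numbers of tags. Leaving out every tag in such genes, an alternative chosen after seeing the data, gave 42.6% ± 3.92 in last-exon 3′ UTRs with NXF1 and 22.4% ± 2.07 with SRSF4. First exons then held 11.5% and 8.57% on average, with overlapping libraries.

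Within exons the profiles also differed. In the last exon, SRSF4 tags crowded towards the 5′ side: the first of 5 equal parts held 42.3%, 35.9% and 35.2% with SRSF4 and 27.2%, 27.4% and 24.6% with NXF1. The final part, next to the 3′ end of the transcript, held 18.3%, 15.3% and 18.5% with NXF1 and 9.93%, 14.5% and 15.2% with SRSF4. NXF1 tags were spread more evenly along the last exon. In internal exons, the 30 nt next to the 5′ splice site held 5.20%, 6.25% and 6.12% of SRSF4 tags and 3.52%, 3.49% and 3.59% of NXF1 tags. Both proteins had more tags in the 30 nt next to the 3′ splice site, with means of 30.1% ± 3.64 for NXF1 and 25.6% ± 0.518 for SRSF4 against 12.8% in the control. None of these 4 contrasts overlapped between the groups, and each had the smallest p the design allows (exact permutation p = 0.1).

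**Figure D2:**
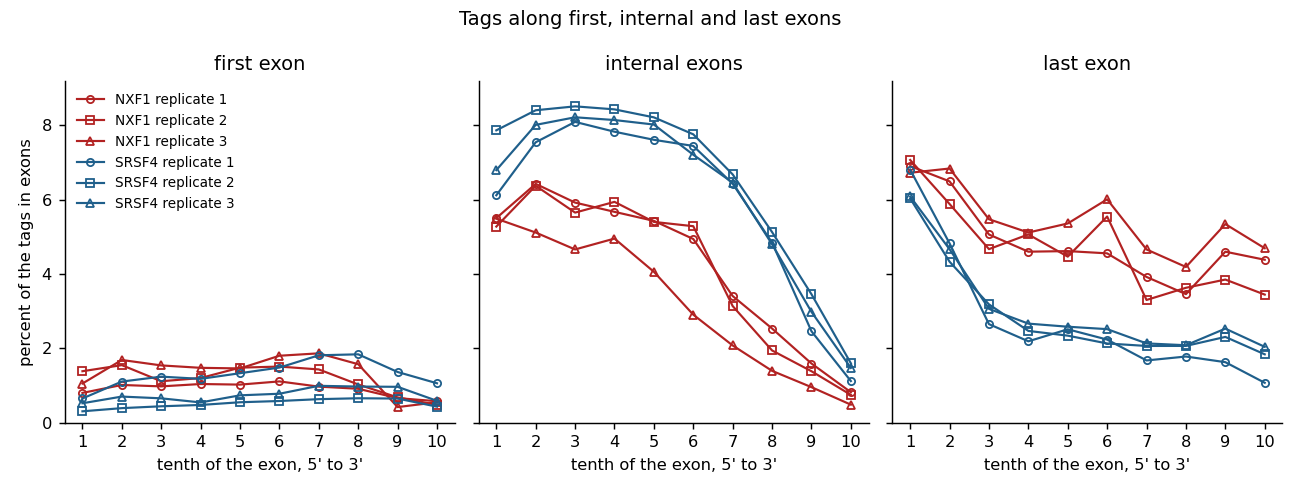
Percent of the tags in exons of multi-exon coding transcripts that fall in each of 10 equal bins from the 5′ to the 3′ end of first, internal and last exons, 1 line per library, with tags in small RNA genes left out. SRSF4 lines lie above NXF1 lines across internal exons, and NXF1 lines lie above SRSF4 lines in the later bins of the last exon.

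The RNA of each tagged gene was the next contrast, and in Nxf1 most of it came from 1 intron. Tags on Nxf1 reached 2366, 2985 and 1472 CPM with NXF1 and 111, 162 and 69.0 CPM with SRSF4, with none listed in the control. The log2 difference was 4.04 (SE 0.62, adjusted p = 0.0022). Intron 10 of 20 (chr19:8839522-8841286, 1765 nt) held 484 of 562, 368 of 419 and 138 of 160 NXF1 tags, or 86.1%, 87.8% and 86.3%, and no other intron of the gene held any. As background, this intron of Nxf1 is known for a retained form of the transcript with a constitutive transport element, an RNA structure that binds NXF1 directly. Of the tags on Nxf1, SRSF4 replicate 2 had 63 of 205 in intron 10, SRSF4 replicate 1 had 1 of 12 and replicate 3 none of 11.

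Inside intron 10 the NXF1 tags fell in separate stretches. The region chr19:8840283-8840944 (662 nt), which includes the sequence printed above, held 1373, 1852 and 856 CPM with NXF1 and 0, 13.4 and 0 with SRSF4 (adjusted p = 0.00053). The region chr19:8839555-8839961 held 518, 513 and 377 CPM against 0, 26.8 and 0. Of the 990 tags that the NXF1 libraries placed in the intron, 216 (21.8%) fell between 1000 and 1100 nt from its 5′ end. The exons of Nxf1, which the BAC carries too, held 12.2% to 13.9% of the NXF1 tags of the gene. In CPM the exons also separated the groups, with 328, 363 and 202 with NXF1 against 102, 112 and 69.0 with SRSF4. Extra gene copies and binding cannot be told apart by level.

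**Figure D3:**
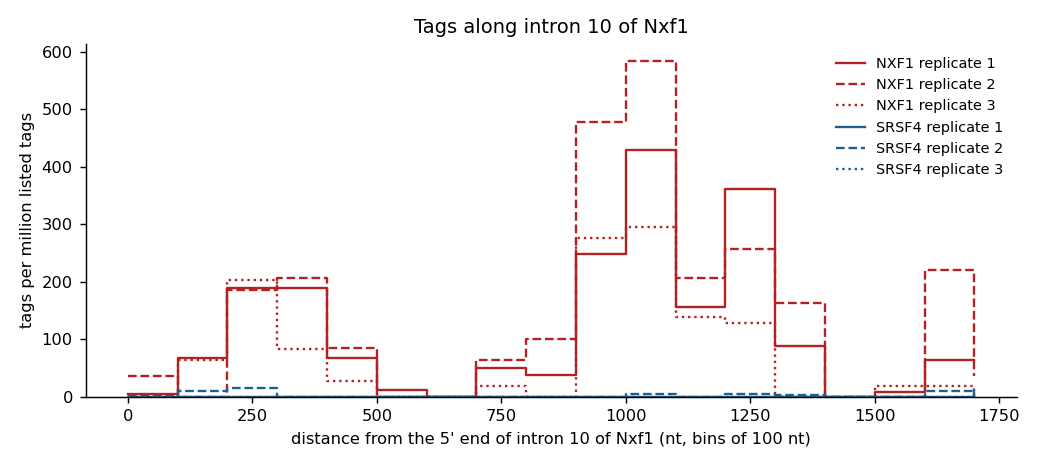
CPM in bins of 100 nt along intron 10 of Nxf1, 1 line per library, by distance from the 5′ end of the intron. NXF1 lines form a lower group of bins near the 5′ end and a higher one with its top between 1000 and 1100 nt, and the SRSF4 lines stay close to 0.

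Srsf4 itself showed the reverse. It held 989, 2203 and 1675 CPM with SRSF4 and 12.6, 14.2 and 27.6 CPM with NXF1, where each library had 2 or 3 tags, all of them in exons (adjusted p = 0.0013). Unlike Nxf1 in its own libraries, the SRSF4 tags were spread over the exons and several introns. Exons held 107 of 107, 1853 of 2791 and 212 of 267 of them. The coding region chr4:131453492-131453775, where the printed Srsf4 sequence lies, held 231, 206 and 219.6 CPM with SRSF4 and none with NXF1 (adjusted p = 0.00053).

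Genes within 100000 nt of a tagged gene moved with it in part. Mecr, a mitochondrial fatty acid synthesis enzyme whose gene lies next to Srsf4, was listed at 0 in all NXF1 libraries and held 471, 1688 and 722 CPM with SRSF4 (adjusted p = 0.00073). Gm12992, a transcript that overlaps the 3′ end of Srsf4 on the other strand, was at 0 with NXF1 and at 296, 164 and 176 CPM with SRSF4 (adjusted p = 0.0013). Near Nxf1, Hnrnpul2, a nuclear RNA- and DNA-binding protein, held 771, 655 and 396 CPM with NXF1 against 18.5, 190.2 and 43.9 with SRSF4 (log2 difference 2.49, SE 0.79, adjusted p = 0.037). The snoRNA host Snhg1, also near Nxf1, gave a log2 difference of 1.01 (SE 0.54, adjusted p = 0.15). The part of the extra gene copies in these values was not tested.

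Across all genes, 350 of 1025 passed the test (34.1%), 124 higher with NXF1 (12.1%) and 226 lower (22.0%). They split by RNA class. The pooled control had 22.7% of its tags in coding genes, inside the NXF1 range of 17.6% to 27.8%. The part of background in the split was not tested. Of 709 nuclear protein-coding genes tested, 12 were higher with NXF1 and 213 lower, with a median log2 difference of −1.86. Of 167 snoRNA genes, which guide chemical modification of ribosomal and spliceosomal RNA, 59 were higher and 2 lower. Of 35 snRNA genes, 19 were higher and none lower, and the 13 mitochondrial tRNA genes tested were all higher. The median over all genes was −0.81. A change on one class moves the CPM of the others, and with the tags of coding genes as the scale, which moved that median to 0.28, 220 genes were higher and 114 lower (21.5% and 11.1%). Trimmed-mean scaling gave 153 and 221 (14.9% and 21.6%). In CPM, 203 genes had every NXF1 library above every SRSF4 library (19.8%) and 281 the reverse (27.4%). With coding-gene totals, 44 coding genes were higher and 108 lower, and 107 snoRNA genes were higher and none lower.

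Many of these calls depended on 1 library. Without SRSF4 replicate 2, 730 genes could be tested, of which 71 passed (9.73%), 47 higher (6.44%) and 24 lower (3.29%). All 124 genes called higher kept their direction and 43 kept the call, among them both mitochondrial rRNA genes, 9 mitochondrial tRNA, 11 snRNA and 13 snoRNA genes. Of the 226 called lower, 78 could still be tested, all 78 kept their direction and 17 kept the call. The other 148 include genes with no NXF1 tag, which 2 SRSF4 libraries alone cannot carry past the requirement of 3 libraries at the minimum level. Without SRSF4 replicate 3, 131 genes were higher and 9 lower, and without NXF1 replicate 2, 30 were higher and 60 lower.

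**Figure D4:**
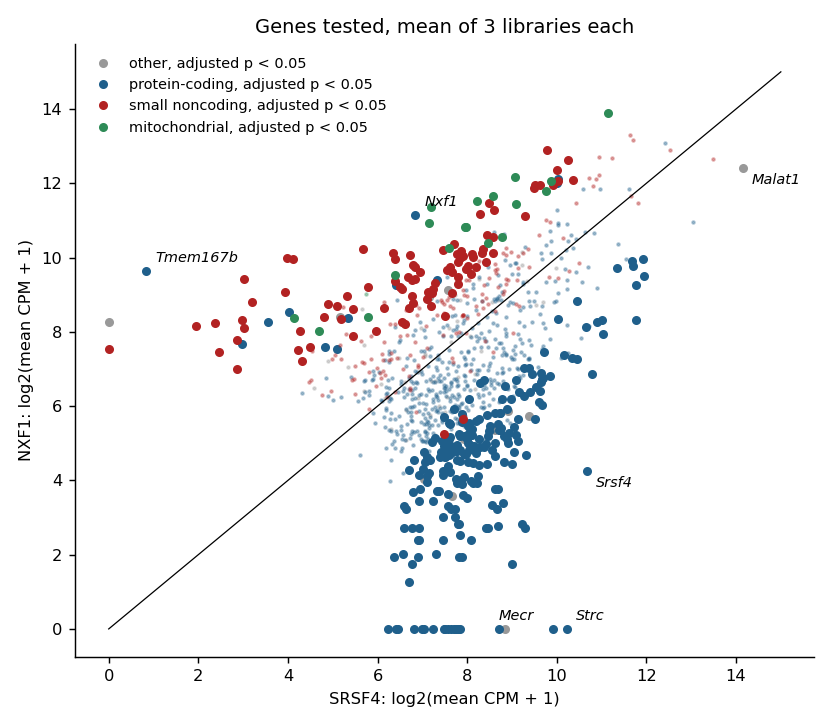
Each point is 1 of the 1025 genes tested, with log2(mean CPM + 1) of 3 SRSF4 libraries on the x axis and of 3 NXF1 libraries on the y axis, and equal levels on the line. Large points passed the test at an adjusted p under 0.05 and small pale points did not. Most called small noncoding and mitochondrial genes lie above the line and most called protein-coding genes below it.

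Stable noncoding RNAs took a larger part of the NXF1 libraries. snoRNA genes held 13.5%, 13.99% and 10.2% of NXF1 tags off the mitochondrial genome against 4.66%, 2.57% and 6.46% of SRSF4 tags and 2.09% in the control. snRNA genes held 6.18%, 7.18% and 8.46% with NXF1 against 2.93%, 0.942% and 3.12% with SRSF4, and 4.15% in the control. The groups did not overlap in either class (exact permutation p = 0.1, the smallest possible). All NXF1 libraries lay above the pooled GFP-NLS value in both classes. Copies of these RNAs are near-identical, so values of single genes are uncertain.

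Among snoRNAs, Snord12 held 1229.5, 926 and 828 CPM with NXF1 and 0, 48.9 and 0 with SRSF4, with 594 in the control (adjusted p = 0.0013). SNORD113 held 749.5, 805 and 488 CPM against 0, 21.3 and 0 (adjusted p = 0.0013). Rian, an imprinted long noncoding RNA that hosts snoRNAs, held 552, 356 and 101 CPM against 0, 105 and 0 (adjusted p = 0.013), so that its lowest NXF1 library lay just below SRSF4 replicate 2. Scarna2, a small RNA of Cajal bodies, held 522, 292 and 138 CPM against 0, 20.5 and 0 (adjusted p = 0.0027, 0.059 without SRSF4 replicate 2). SCARNA11, another, held 451, 691 and 184 CPM against 0, 24.5 and 0 (adjusted p = 0.0020, 0.055 without that library). In both, all NXF1 libraries lay above all SRSF4 libraries. Snora81, SNORA66, SNORD74 and snoU89 completed the snoRNAs among the 12 largest differences, each with every NXF1 library above every SRSF4 library.

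RNase MRP RNA, the RNA of a nucleolar enzyme that cuts ribosomal precursor, held 5853, 9233 and 7948 CPM with NXF1 against 1109, 482 and 1029 with SRSF4 (log2 difference 3.16, SE 0.56, adjusted p = 0.0041). The control held 1691. U11, an snRNA of the minor spliceosome, held 2004, 2009 and 2861 CPM against 305, 128 and 496 (log2 difference 3.27, SE 0.64, adjusted p = 0.0061), with 823 in the control. Both stayed past the threshold without SRSF4 replicate 2 (adjusted p = 0.0038 and 0.0082).

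The mitochondrial genome held 5.66%, 4.43% and 5.58% of all NXF1 tags and 0.651%, 0.356% and 1.41% of SRSF4 tags, with 1.32% in the control. The large rRNA mt-Rnr2 held 18801, 12461 and 14424 CPM with NXF1 against 1904, 998 and 3846 (log2 difference 2.86, SE 0.63, adjusted p = 0.010). The valine tRNA mt-Tv held 2308, 2536 and 3063 CPM against 73.9, 76.6 and 289 (log2 difference 4.69, SE 0.64, adjusted p = 0.0015). Of 4 mitochondrial protein genes tested, mt-Cytb, mt-Nd4 and mt-Nd1 were higher, but none kept the call without SRSF4 replicate 2. The spread in mt-Nd1 was wide, with 1196, 399 and 626 CPM against 0, 105 and 144.

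A ribosomal repeat outside annotated genes held a large part of the tags. The stretch chr17:39979939-39985047 on the plus strand, 18 regions in a row, held 18.02%, 22.0% and 24.1% of NXF1 tags off the mitochondrial genome and 8.41%, 2.56% and 8.33% of SRSF4 tags. GFP-NLS held 21.9%, the level of NXF1. Within it, the region chr17:39982100-39982131 held 1103, 1973 and 2493 CPM with NXF1 and none with SRSF4 or in the control (adjusted p = 0.00053). These are repeated sequences, and the copy a cDNA came from is not known.

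**Figure D5:**
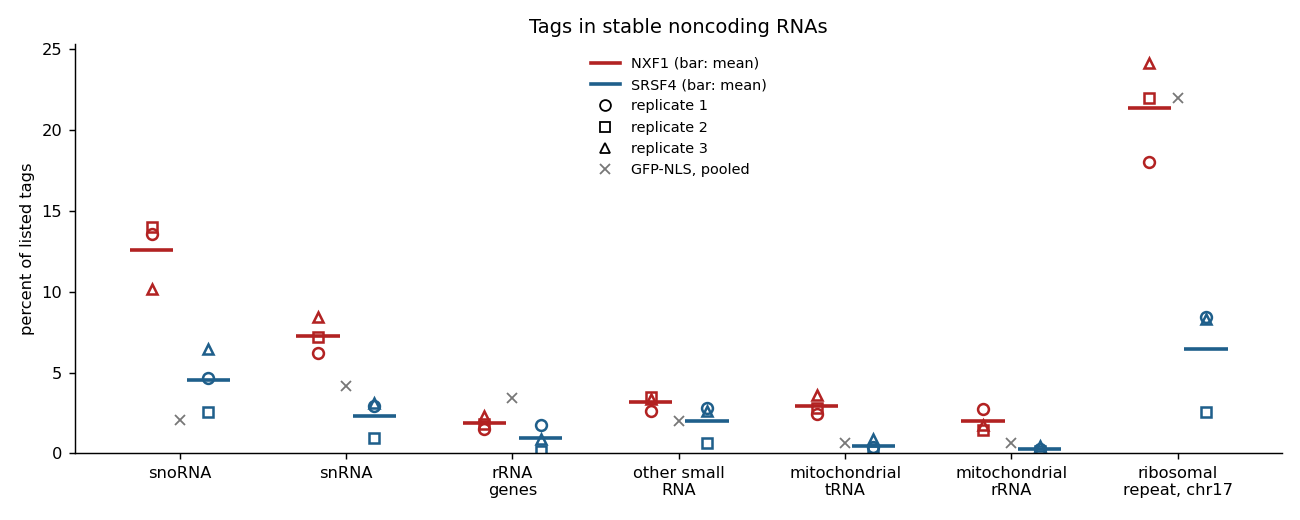
Percent of listed tags in each class of stable noncoding RNA for each library, with bars at the mean of 3 libraries and crosses for the pooled GFP-NLS control. Nuclear classes are shown as percent of tags outside the mitochondrial genome, and mitochondrial classes as percent of all tags. NXF1 libraries lie above SRSF4 libraries in snoRNA, snRNA, mitochondrial RNA and the ribosomal repeat, and the control lies at the NXF1 mean in the ribosomal repeat (21.9% against 21.4%).

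Precursors of the miR-302 cluster, microRNAs of pluripotent cells, were also on the NXF1 side. Mir302b held 400.0, 264 and 193 CPM with NXF1 against 0, 2.37 and 6.27 (adjusted p = 0.0015). Mir302d held 261, 128 and 166 CPM and was at 0 with SRSF4 (adjusted p = 0.0020), and Mir302a held 493, 378 and 322 CPM against 0, 33.2 and 176 (log2 difference 3.92, SE 0.99, adjusted p = 0.016). Mir302c and Mir367 were listed in 1 NXF1 library each and could not be tested. In all, 3 of 11 microRNA genes tested were higher with NXF1, and none kept the call without SRSF4 replicate 2. The mature 3p products of the precursors with the clearest difference share a seed (bases 2 to 8, in capitals, RefSeq, GRCm38.p6), and are printed to show that the calls fall on near-identical family members.
mmu-miR-302b-3p: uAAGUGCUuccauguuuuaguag
mmu-miR-302d-3p: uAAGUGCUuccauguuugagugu

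The 12 nuclear coding genes higher with NXF1 were a mixed group. For 3 of them the tags lay inside a small RNA gene on the same strand: a U5 snRNA copy in B930036N10Rik, U7 in Grcc10 and a 5S rRNA copy in Tmem38b held 91.5% to 100% of their NXF1 tags. Hist4h4 and Hist2h4 are histone H4 genes with near-identical copies. Tmem167b was, after Nxf1, the clearest remaining case. It held 1246, 848 and 294 CPM with NXF1 and 0, 2.37 and 0 with SRSF4 (adjusted p = 0.0013). As in Nxf1, its tags were intronic: intron 2 of 2 held 253 of 296, 98 of 119 and 32 of 32 NXF1 tags, in the region chr3:108361722-108362476. The remaining names were Hnrnpul2, Ppfia3, Cwf19l1, Il31ra and Gm10800, none of which kept the call without SRSF4 replicate 2. Neither did Tmem167b (adjusted p = 0.060) or the H4 genes, and the 4 that did were Nxf1 and the 3 that lie on small RNA genes. Grcc10 held 4845 CPM in the control, against 2779, 4474 and 5096 with NXF1. B930036N10Rik held 2514 CPM in the control, between the NXF1 libraries (3457, 4538 and 5418) and the SRSF4 libraries (1451, 479 and 1217). For Nxf1 and Tmem38b none was listed in the control.

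On the SRSF4 side, CDS held 56.0% to 86.1% of the SRSF4 tags of each coding gene named here other than Mecr and Srsf4. Genes without a listed NXF1 tag could be tested only where every SRSF4 library reached the minimum level. Their adjusted p-values are therefore not independent of that selection. Strc, which encodes the inner ear protein stereocilin, was at 0 with NXF1 and held 619, 1801 and 1192 CPM with SRSF4 (adjusted p = 0.00073). Scaf4, an SR-related protein that binds RNA polymerase II, was at 0 with NXF1 and held 166, 671 and 420.4 CPM with SRSF4 (adjusted p = 0.0013). Tpr, a component of the nuclear basket of the pore, held 0, 7.12 and 0 CPM with NXF1 and 222, 799.6 and 508 with SRSF4 (adjusted p = 0.0013). Myh9, Ubr4, Lama5, Clcn6, Tsr1 and Rbm28 completed the coding genes among the 12 largest, at between 81.6 and 1141 CPM with SRSF4 and at most 18.4 CPM with NXF1.

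With and without the deep library, 16 coding genes were lower with NXF1. With coding-gene totals 3 of the 16 kept the call, Setd5, Nap1l1 and Chd4. When each position was counted once, 2 kept it, Chd4 and Setd5. That count turned the direction of 5, D730040F13Rik, Ptma and the 3 histone genes. Canx, a chaperone of the endoplasmic reticulum, held 1440.1, 392 and 349.6 CPM with NXF1 and 2273, 3898.5 and 5672 with SRSF4 (log2 difference −2.55, SE 0.70, adjusted p = 0.022). Chd4, a chromatin remodeller, held 232, 142 and 92.0 CPM against 933, 1860.4 and 1060.3 (log2 difference −2.85, SE 0.68, adjusted p = 0.013). Nap1l1, a histone chaperone, held 278, 285 and 166 CPM against 1266, 2394 and 2660.3 (log2 difference −2.97, SE 0.61, adjusted p = 0.0077). The others were Hsp90ab1, Eif3a, Huwe1, Ptma, Setd5, Serbp1, Hnrnpu, Set, Npm1, D730040F13Rik and the histone genes Hist1h1d, Hist1h2bc and Hist1h2bk.

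Gene lists of mRNA metabolism are read against all coding genes tested, of which 213 of 709 were lower with NXF1. Of 6 SR protein genes tested, Srsf4, which is the tagged gene with extra copies, and Srsf2 were lower with NXF1. None was higher, and the list median was −2.86. Srsf2 held 232, 28.5 and 36.8 CPM against 536, 982 and 891 (log2 difference −3.30, SE 0.92, adjusted p = 0.023). Of 8 nuclear speckle genes, 5 were lower, among them the splicing co-activators Srrm1 and Srrm2, Bclaf1 and Luc7l2, with a list median of −2.96. Of 6 core spliceosome genes, the U2 factors U2af2 and Sf3b3 and the U5 protein gene Prpf8 were lower. U2af2 held 25.3, 0 and 0 CPM against 185, 258 and 194.5 (adjusted p = 0.0040).

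Of 16 hnRNP genes, Hnrnpul2, which lies near the tagged Nxf1, was higher and 4 were lower, among them Hnrnpu, Hnrpdl and Hnrnpul1. Hnrnpu, a scaffold protein of the nucleus, held 606, 185 and 156 CPM with NXF1 and 1090.4, 2692 and 2359 with SRSF4 (log2 difference −2.58, SE 0.71, adjusted p = 0.022). Of 4 mRNA export genes, Nxf1, itself tagged, was higher and the helicase gene Ddx39 and Zc3h11a were lower. Both genes tested for the exon junction and mRNA decay, Rbm8a and Acin1, were lower, as was 1 of 4 genes of 3′ end processing. Of 6 nucleolar protein genes, Npm1, Dkc1 and Nop58 were lower. Without SRSF4 replicate 2, none of 5 SR protein, 7 nuclear speckle and 5 core spliceosome genes still tested was called lower, against 1 of 12 hnRNP genes and 2 of 5 nucleolar protein genes. With coding-gene totals, 1 gene each was lower among the SR protein, nuclear speckle, core spliceosome, hnRNP and mRNA export genes. None then was among those of the exon junction and decay, of 3′ end processing and of the nucleolus. The list medians on that scale were −1.71 for SR protein, −1.70 for nuclear speckle and −0.11 for hnRNP genes. The SR protein gene called lower on that scale was the tagged Srsf4 (adjusted p = 0.0016). Srsf2 did not pass there (adjusted p = 0.056), and 1 SR protein gene was higher.

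None of 17 ribosomal protein genes passed the test in either direction, with a median of −0.15. Rpl4, the highest of them, held 787, 598 and 331 CPM with NXF1 and 813, 1237 and 1525 with SRSF4 (log2 difference −1.02, SE 0.55, adjusted p = 0.16). Of 14 translation factor genes, Eef1d, Eif3c and Eif3a were lower, with a median of −1.32. Of 51 histone genes, 2 were higher and 5 lower, with a median of −0.35. None of 5 pluripotency genes and none of 3 tubulin and actin genes passed. With coding-gene totals as the scale, 3 ribosomal protein genes and 8 histone genes were higher, and the lower genes numbered 0 and 1.

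Malat1, the abundant long noncoding RNA of nuclear speckles, held 7251, 6034 and 3155 CPM with NXF1 and 15099, 15469 and 23961 with SRSF4, and none was listed in the control (log2 difference −1.80, SE 0.58, adjusted p = 0.040). Without SRSF4 replicate 2 the adjusted p was 0.012, and with coding-gene totals 0.48. The call was lost under 10 of 15 alternatives, and counting each position once turned the difference to 0.04. Of 9 long noncoding and host RNA genes tested, Rian was higher and Malat1 and Snhg5 were lower.

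At the level of binding regions, 513 of the 1440 tested passed (35.6%), 260 higher with NXF1 (18.1%) and 253 lower (17.6%). With coding-gene totals 567 passed (39.4%), 421 higher (29.2%) and 146 lower (10.1%). Without SRSF4 replicate 2, 128 of 1139 were higher (11.2%) and 105 lower (9.22%). In CPM, 413 regions had every NXF1 library above every SRSF4 library (28.7%) and 362 the reverse (25.1%). Of 209 CDS regions, 6 were higher and 97 lower, with a median log2 difference of −2.45. Counting each position once gave 7 higher and 11 lower of 106 CDS regions, with a median of 0.17. Without SRSF4 replicate 2, 1 was higher and 9 lower of 101, and with coding-gene totals 12 were higher and 65 lower. Of 133 3′ UTR regions, 4 were higher and 37 lower, and with coding-gene totals 10 were higher and 21 lower, with a median log2 difference of −0.02. Of the 4 that were higher in CPM, the regions in B930036N10Rik and Tmem38b lay on small RNA copies. The Hnrnpul2 region held 232, 128 and 110.4 CPM against 0, 3.95 and 0 (adjusted p = 0.00060), and the Hnrnpa0 region 118, 192 and 156 against 27.7, 56.0 and 56.5 (log2 difference 1.60, SE 0.53, adjusted p = 0.049). Introns had 33 regions higher and 21 lower of 144, and small RNA genes 105 higher and 2 lower of 257. The largest class lay outside genes, with 109 higher and 68 lower of 587.

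Among the regions with the largest change on the SRSF4 side, those in Srsf2, Hnrnpu, Hsp90ab1 and Srsf4 had no listed NXF1 tag. The Srsf2 region chr11:116713342-116713536 held 296, 240.0 and 295 CPM with SRSF4 and none with NXF1 (adjusted p = 0.00053). The Hnrnpu region chr1:180261175-180261410 held 194, 227 and 251 CPM, and the Hsp90ab1 region chr17:45707629-45707789 held 268, 229 and 144, both at 0 with NXF1. The NXF1 tags on Hnrnpu lay in its 3′ UTR for 54.0%, and its SRSF4 tags in CDS for 57.2%. Outside genes, a region of 463 nt on chromosome 7 (chr7:67364848-67365310) held 1579, 741 and 764 CPM with NXF1 and none with SRSF4 or in the control (adjusted p = 0.00053).

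The sequence around cross-link sites differed as well. Within 20 nt of listed positions in exons of coding genes, 231 of all possible pentamers passed the test (22.6%), 94 more frequent with NXF1 (9.18%) and 137 less frequent (13.4%). Many pentamers of SRSF4 contained GA: 101 of the 137, against 244 of all possible ones. Of the 137, 14 consisted of A and G alone (32 of all possible ones) and none had 3 or more T. GATGA made up 2.19, 1.59 and 1.23 of every 1000 pentamers with NXF1 and 4.45, 3.22 and 4.01 with SRSF4 (log2 difference −1.25, SE 0.19). GACGA showed the largest difference, −1.45 (SE 0.30), and GAAGA −0.94 (SE 0.19).

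The pentamers of NXF1 were rich in G and T. Of the 94, 36 had 3 or more T (106 of all possible ones) and 21 consisted of G and T alone (32 of all possible ones). GGGGG made up 1.13, 1.75 and 1.504 per 1000 with NXF1 and 0.764, 0.631 and 0.680 with SRSF4 (log2 difference 1.06, SE 0.16). The other 4 of the 5 largest, among them ACGCG (1.13) and CTACG, all contain CG, and they were not among the 5 largest without histone genes, an alternative chosen after seeing the data. There 132 were more and 191 less frequent (12.9% and 18.7%), CTACG gave −0.07 and the largest were GGGGG (1.14), GTGTG (0.99), TGTGT (0.98), TTGTT (0.81) and GTTTT (0.81). The cross-linked base itself was T at 52.2%, 51.1% and 50.3% of NXF1 positions and 44.2%, 43.8% and 43.9% of SRSF4 positions in coding gene exons.

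Pentamers were also counted by place on the transcript. In CDS alone 52 pentamers passed (5.08%), 23 more frequent with NXF1 (2.25%) and 29 less frequent (2.83%). That count rested on single libraries: it was 0 without NXF1 replicate 2, SRSF4 replicate 2 or SRSF4 replicate 3, 3 without SRSF4 replicate 1, 4 without NXF1 replicate 3 and 211 without NXF1 replicate 1. Of the 23, 16 contained CG. In 3′ UTRs alone none passed by limma, with 74 at an unadjusted p under 0.05 and 22 called when positions were weighted by tags. In introns none passed, with 118 at an unadjusted p under 0.05. GGGGG kept a difference of 0.84 (SE 0.17) in 3′ UTRs and 0.95 (SE 0.18) in introns, and GATGA one of −1.11 (SE 0.28) in CDS but −0.16 (SE 0.17) in 3′ UTRs. GTGTG and TGTGT differed by 0.05 (SE 0.17) and 0.05 (SE 0.16) in CDS, and by 0.83 (SE 0.22) and 0.56 (SE 0.18) in 3′ UTRs. GTTTT and TTGTT differed by 0.46 (SE 0.14) and 0.33 (SE 0.19) in CDS, and by 0.13 (SE 0.13) and 0.19 (SE 0.14) in 3′ UTRs. The differences between these places were not tested. Nor was the part that the larger 3′ UTR share of NXF1 has in the values over all coding gene exons.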

How the data were processed

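Groups and replicate numbers came from the sample titles. No label says that replicates were separate cultures. The p-values therefore reflect the spread among these libraries alone, and that spread may be technical. Each deposited file holds a signed score per position: per the file headers, a cDNA count whose sign gives the strand, kept by the authors at a false discovery rate of 0.05 for local density (100 permutations, 15-nt neighbourhood, mm9 with Ensembl 59 segments). CASAVA 1.4 and mm9 appear in the submitters' processing notes, and for the aligner nothing was given in the sources read. A 0 thus means that no position was listed, totals are not sequencing depth, and no fold is given against a group at 0. The authors' clusters of NXF1 and SRSF4 were merged within 30 nt on the same strand into 155308 regions, which held 97.3% to 98.3% of the tags of each library.

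Tags were assigned to GENCODE vM1 genes on NCBIM37, in the order CDS, UTRs, small RNA, other coding exon, noncoding exon, intron. Regions and genes were tested with limma voom (limma 3.58.1, R 4.3.3), scaled by listed tags, if 3 or more libraries were at 66.7 CPM or above, which is 10 tags in the median library (149872 tags), and all libraries together had 15 tags. A call is a Benjamini-Hochberg adjusted p under 0.05, and adjusted p-values are from limma unless an exact permutation test is named. A gene or region with no listed tag in either group was tested only where all 3 libraries of the other group reached the CPM minimum. The adjusted p of such a gene or region, on either side, is therefore not independent of that selection. Pentamers were tested with limma on log2 frequency, each position counted once. The scripts were tested on simulated data. Tagged genes were named first, then the 12 genes and 8 regions with the largest change in each direction that had tags in all 3 libraries of the higher group, list members past the threshold (at most 4 a list, otherwise the highest member), and 5 pentamers in each direction. The members, gene lists and tests were chosen with earlier results of these data known. Alternatives were other scalings, filters, fits, thinning to 108216 tags, counting positions, and leaving out each library.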

Additional observations from a re-analysis of the deposited data

How the results depend on the processing

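Counts of calls depended strongly on the processing. Genes higher and lower with NXF1 numbered 124 and 226 as reported, 220 and 114 with coding-gene totals as the scale, 78 and 93 with limma-trend, 45 and 122 with all 31 libraries in the fit, and 55 and 90 when positions replaced tags. Without the filter 970 were lower, and 128 were lower after thinning. Leaving out 1 library gave 30 to 159 higher and 9 to 221 lower, the lowest without NXF1 replicate 2 and SRSF4 replicate 3. Regions higher and lower numbered 260 and 253 as reported, 421 and 146 with coding-gene totals, 651 and 2711 without the filter, 164 and 135 with limma-trend, 124 and 30 by positions, 146 higher with all 31 libraries and 163 lower after thinning. Leaving out 1 library gave 19 to 355 higher and 51 to 144 lower, the fewest higher without NXF1 replicate 1. Trimmed-mean scaling without SRSF4 replicate 2, chosen after seeing the data, gave 69 and 40 genes and 77 and 133 regions. Pentamers in coding gene exons ranged from 32 to 114 higher and 64 to 131 lower with 1 library left out, and in introns from 0 to 8 and 0 to 2. In CDS alone they ranged from 0 to 109 and 0 to 102. The causes were not tested.

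Replicate numbers did not pair the libraries: deviations of same-numbered libraries from their group means correlated at −0.27, −0.04 and −0.09. With a replicate block, 29 genes were higher and 44 lower, 102 and 142 regions, and 31 and 57 pentamers.

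Counting each position once turned the differences of the 3′ UTR share (0.44 percentage points) and the intron share (2.15) of all tags off the mitochondrial genome, and the log2 differences of Rpl4 (0.20), Hist1h1d (0.38) and Malat1 (0.037). The gene Actb went to 0.016 with trimmed-mean scaling, 0.78 with coding-gene totals, 1.01 by positions and ranged from −0.42 to 0.16 with 1 library left out, the highest without NXF1 replicate 3. CTACG went to −0.074 without histone genes. Of 778 values of named genes and list members under alternatives, 531 kept direction and side of the threshold and 238 kept direction alone. For named regions 191 of 196 kept both. Listing by local density limits what low totals can show, so a 0 in a shallow library is no absence.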

Other observations

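Tags of one protein often lay close to positions of the other. With every library thinned to 108216 tags, a median of 58.1% of the NXF1 tags in exons of coding genes lay within 30 nt of a position listed in an SRSF4 library (9 pairs of libraries, 39.4% to 76.1%), against 56.7% for positions of another NXF1 library (6 pairs, 39.0% to 70.7%). In the other direction, 26.7% of SRSF4 tags lay near NXF1 positions (9.60% to 51.7%) and 51.2% near positions of another SRSF4 library (17.9% to 75.3%). The pairs share libraries and are given as a description, with no test. Thinning evens out tags but not listed positions. As deposited, the SRSF4 libraries held 2.93, 1.67 and 2.18 tags per position and the NXF1 libraries 3.08, 3.59 and 3.66. No level from the control or from shuffled positions was set beside these percentages, so the part of coverage in them was not tested. Over all tags the medians were 84.0% and 63.3% between the proteins.

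In CPM, some snoRNAs of the Snhg1 host gene, which lies near Nxf1, separated the proteins more than their neighbours in the same host. The members with the largest and the smallest log2 difference among those tested are given. SNORD30 held 947, 912 and 984 CPM with NXF1 and 139, 108 and 414 with SRSF4 (log2 difference 2.56, SE 0.61, adjusted p = 0.013), while SNORD28 held 1789.6, 1475 and 1131 CPM against 1248, 429 and 1725 (log2 difference 0.45, SE 0.60, adjusted p = 0.56). Counting each position once gave similar log2 differences, 2.36 for SNORD30 and 2.17 for SNORD28. The difference between these members was not tested.

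Gm15759, a noncoding transcript of chromosome 1 which overlaps other genes on the opposite strand, held 371, 392 and 156 CPM with NXF1, 90.0% of them intronic, and was at 0 in the SRSF4 libraries and the control (adjusted p = 0.0013). Gm4204, a pseudogene, showed the reverse, with none listed for NXF1 and 351, 583 and 445 CPM with SRSF4 (adjusted p = 0.00073).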
